A study of Mus musculus with 9 samples.

Results

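Integrins and the other receptors that hold fibroblasts to the extracellular matrix were followed at the mRNA level in mouse 3T3 cells, an immortalised line of embryonic fibroblasts. The set was defined by gene symbol, with earlier results of these data known, and holds 35 of the 19698 genes measured. These are 18 integrin alpha subunit genes (Itga), 10 genes with Itgb symbols and 4 syndecans (Sdc1 to Sdc4). The others are the discoidin domain receptors Ddr1 and Ddr2, and dystroglycan (Dag1). One of the Itgb symbols, Itgbl1, matched by its letters only, because its product resembles a beta subunit without being a receptor chain. The 9 Affymetrix mouse Gene 1.0 ST arrays fell into 3 groups of 3, all from subconfluent cultures. The first group was control cells without stimulation. The second was control cells after 1 h with the cytokine TNF-α (tumour necrosis factor, 5 ng per ml). The third was cells with a stable knockdown of the BAF complex, a nucleosome remodeller, given the same TNF treatment. One short hairpin RNA against a sequence shared by the BAF ATPases Brg1 and Brm (genes Smarca4 and Smarca2) was expressed there from a U6 promoter in a retroviral vector with GFP, and the transduced cells were sorted for high GFP, so the line is a selected population. The sources used here do not state whether the control cells carried a vector, and unstimulated knockdown cells were not analysed here. Differences due to the hairpin, the vector and the selection of the line cannot be told apart.

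An integrin is a pair of 1 alpha and 1 beta chain that spans the membrane, binds a matrix protein or another cell on the outside and, through talin and kindlin, the actin cytoskeleton on the inside. The alpha chain largely sets the ligand: some bind collagens, some laminins, some the RGD sequence of fibronectin and vitronectin, and a further set is used by leukocytes to bind other cells. Syndecans carry heparan sulphate chains and act beside integrins, discoidin domain receptors are tyrosine kinases that collagen activates, and dystroglycan binds laminin with sugar chains.

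The level of a gene is given below as its RMA log2 signal, and a difference of 1 on that scale is a factor of 2. Levels of different genes come from different probes, so they are not compared gene by gene. The quartile of a gene among all gene means is given as a rough guide only. Each of the 35 genes had 1 transcript cluster (the unit of the array) with that symbol alone. Of the 35 genes, 13 had a mean in the top quartile of all gene means (9.90 or more), 15 in the middle and 7 in the bottom quartile (under 6.61), where a value may hold little but background. The top quartile held Itga3, Itga5, Itga11, Itgav, Itgb1, Itgb5, all 4 syndecans, Ddr1, Ddr2 and Dag1. The bottom quartile held Itga4, Itga8, Itgae, Itgam, Itgax, Itgb6 and Itgbl1. Of the fibroblast markers, 8 of 12 measured were in the top quartile, among them Col1a1, Col1a2, Pdgfra and Vim, and 2 in the bottom quartile. Of the leukocyte, epithelial, endothelial and skeletal muscle markers 0 were in the top quartile. The bottom quartile held 2 of 11 epithelial, 3 of 9 endothelial and 1 of 7 skeletal muscle markers. The mean over the 12 leukocyte markers lay between 6.69 and 6.80 on the 9 arrays, and 5 of the 12 were in the bottom quartile. Of 8 markers of mural and smooth muscle cells, Acta2, Cnn1 and Tagln were in the top quartile, and of 4 measured platelet markers Ppbp was. Each of these 2 lists had 1 marker in the bottom quartile. Smarca4, a target of the hairpin, read 11.53 to 11.66 on the 6 control arrays and 10.25 to 10.64 on the knockdown arrays. It was 1.11 ± 0.09 (SE, n = 3 arrays a group, log2 scale) lower in knockdown than in control cells, both with TNF (2.15-fold, adjusted p = 0.00362, limma), and Smarca2 was 0.36 ± 0.20 lower (adjusted p = 0.734, limma, and 0.129 with the replicate block explained below). By quantitative RT-PCR, a different measure, the paper reports a larger reduction of both transcripts.

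The first comparison asked which receptor genes respond to 1 h of TNF in control cells. Sdc4, the syndecan of focal adhesions, had the largest difference, and every other gene stayed within 0.27 of 0 on the log2 scale. 0 of the 35 genes passed limma at an adjusted p under 0.05, against 0.137% of all genes tested. The replicate number was also added to the fit as a block, because arrays of the same number deviate together. With it 0 genes passed as well, against 0.396% of all genes. The methods' t-test with its minimum difference of 0.35 called 0 of the 35. Over all genes it called 107 higher and 8 lower with TNF, and 1 after Benjamini-Hochberg adjustment. By limma without the block, at an unadjusted p under 0.05, the count was 1 gene, Sdc4, with 3.07% of all genes as background. Of the 35 differences 14 were above 0 and 21 below, with a median of -0.01, and the median over all genes was -0.00. The groups of 3 arrays did not overlap for Sdc4 and Itgad, which were higher with TNF, and for Itgb5, which was lower, a count of 3 of 35 against 5.97% of all genes. Within each of the 3 replicate numbers the TNF-treated array was higher for 7 of the 35 genes and lower for 8, where 12.1% and 16.1% of all genes were.

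The second comparison asked which of these genes differ between BAF knockdown and control cells when both have had TNF. Sdc1 and Sdc3 and the fibronectin receptor chain Itga5 were lower in the knockdown cells, by 1.42-fold, 1.25-fold and 1.56-fold, and the laminin receptor chain Itga3 was 1.41-fold higher. None of the 35 passed limma without the block (0.137% of all genes did), where 8 genes had an unadjusted p under 0.05 against a background of 8.43%. Of these Itga2, Itga3 and Itga8 were higher (3.69% of all genes) and Itga5, Itga6, Itgb7, Sdc1 and Sdc3 lower (4.75%). With the replicate block 4 passed, Itga3 higher and Itga5, Sdc1 and Sdc3 lower, against 3.31% of all genes (0.98% higher and 2.33% lower). All 4 were in the top quartile of gene means, where the background was 4.95%. The methods' t-test with its minimum difference of 0.3 called 2, Sdc1 and Sdc3, both lower, and 0 after Benjamini-Hochberg adjustment. Of all 19698 genes it called 146 higher and 287 lower, and 0 after adjustment. The 35 differences were balanced around 0, with 18 above, 17 below and a median of 0.00 beside 0.01 over all genes. Only 1 exceeded 0.3 and 6 were under -0.3, where 1.87% and 3.27% of all genes were. The arrays of both groups did not overlap for 5 genes (Itga3 higher, and Itga5, Itgb7, Sdc1 and Sdc3 lower), against 10.1% of all genes. The knockdown array was higher within all 3 numbers for 3 genes (Itga3, Itgav and Dag1) and lower for 4 (Itga5, Itgb7, Sdc1 and Sdc3), where 12.9% and 12.8% of all genes were. In bulk RNA, fewer cells of a type and less RNA per cell cannot be told apart. The mean over the 12 fibroblast markers ran from 10.22 to 10.57 on the TNF-treated control arrays and from 9.72 to 10.09 on the knockdown arrays. Of the 12, 11 were lower in the knockdown cells. Over the 12 the median difference was -0.15 and the lowest -2.13. With the block 4 passed, all lower, against 2.33% of all genes. The part of these differences in the receptor results was not tested. Of the 8 mural markers 6 were lower in the knockdown cells, and 2 of the 8 passed with the block, both lower. The mean over the list was 9.65 in control and 9.46 in knockdown cells. Of the 4 platelet markers 2 were lower and 2 higher, the lowest being Ppbp with a difference of -1.39. With the block 1 of the 4 passed, lower in the knockdown cells. The leukocyte mean was 6.74 in both groups, and 0 leukocyte markers passed with or without the block.

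**Figure D1:**
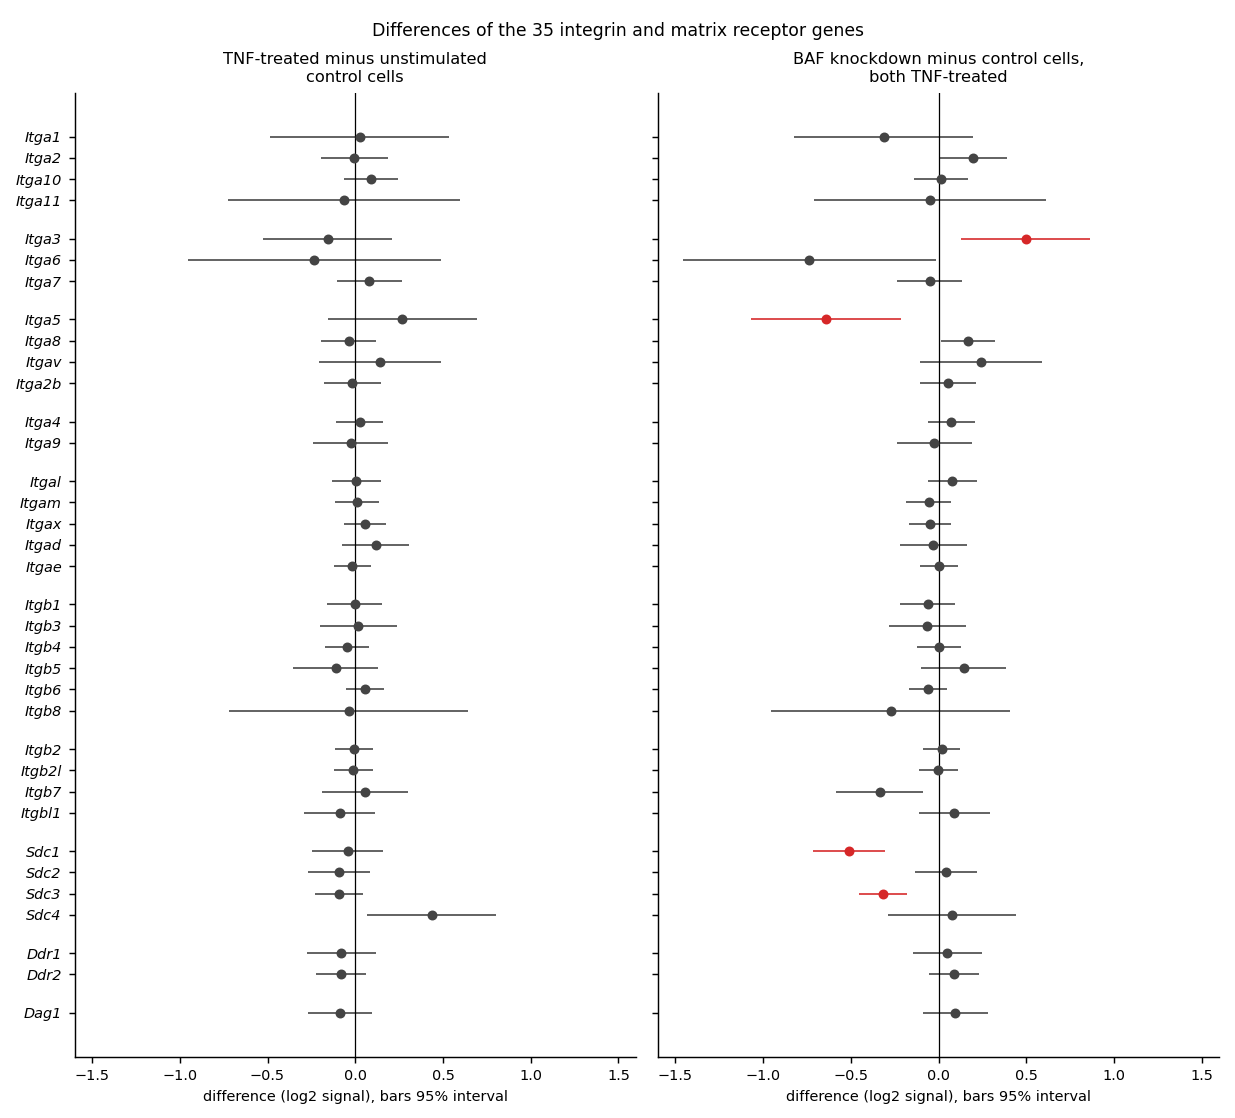
Difference in log2 signal of each of the 35 genes, for the effect of TNF in control cells on the left and for knockdown less control cells after TNF on the right. Points are limma differences of 3 against 3 arrays, bars their 95% intervals without the block, gaps separate the functional classes, and the 4 red points passed an adjusted p under 0.05 with the replicate block. On the left only the bar of Sdc4 lies clear of 0, and on the right those of Sdc1 and Sdc3 lie farthest below 0 for their width.

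Promoter sequence bears on these genes because the study sorted promoters by their content of CpG dinucleotides. The stretch of 250 bases before the RefSeq start is shown for the 4 genes that passed with the block in the knockdown comparison and for Sdc4, 5′ to 3′ along the gene, with each CpG in capitals. The positions in mouse build GRCm38.p6 are chr12:8771146-8771395 on the plus strand for Sdc1, chr15:103366792-103367041 on the minus strand for Itga5, chr4:130792287-130792536 on the plus strand for Sdc3, chr11:95076715-95076964 on the minus strand for Itga3 (the first of its listed starts) and chr2:164443189-164443438 on the minus strand for Sdc4.
Sdc1: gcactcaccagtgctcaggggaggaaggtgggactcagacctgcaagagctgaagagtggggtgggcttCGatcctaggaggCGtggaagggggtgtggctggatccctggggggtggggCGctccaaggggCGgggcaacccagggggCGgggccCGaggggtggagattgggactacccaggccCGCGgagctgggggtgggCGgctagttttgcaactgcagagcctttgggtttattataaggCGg
Itga5: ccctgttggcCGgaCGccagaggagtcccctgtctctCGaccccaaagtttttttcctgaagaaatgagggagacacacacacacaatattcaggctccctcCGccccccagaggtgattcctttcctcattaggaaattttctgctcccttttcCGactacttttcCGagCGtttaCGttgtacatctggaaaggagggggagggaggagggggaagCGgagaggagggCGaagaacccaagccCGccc
Sdc3: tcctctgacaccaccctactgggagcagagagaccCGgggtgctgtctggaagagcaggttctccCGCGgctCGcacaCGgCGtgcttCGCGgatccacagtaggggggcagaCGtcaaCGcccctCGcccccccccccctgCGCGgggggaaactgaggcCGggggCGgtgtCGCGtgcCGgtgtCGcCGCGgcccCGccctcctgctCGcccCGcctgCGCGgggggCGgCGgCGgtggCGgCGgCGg
Itga3: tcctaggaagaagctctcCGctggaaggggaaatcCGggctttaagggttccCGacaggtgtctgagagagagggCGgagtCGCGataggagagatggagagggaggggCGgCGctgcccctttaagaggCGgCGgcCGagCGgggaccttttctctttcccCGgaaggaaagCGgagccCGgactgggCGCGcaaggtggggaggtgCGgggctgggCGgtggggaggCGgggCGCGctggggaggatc
Sdc4: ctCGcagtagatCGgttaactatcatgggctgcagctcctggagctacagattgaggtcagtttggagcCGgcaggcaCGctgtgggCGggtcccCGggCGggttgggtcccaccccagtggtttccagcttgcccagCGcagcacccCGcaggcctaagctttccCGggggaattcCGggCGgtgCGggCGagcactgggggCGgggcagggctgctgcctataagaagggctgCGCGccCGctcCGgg

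Sdc1, a heparan sulphate proteoglycan best known from epithelia and plasma cells, read 10.90, 10.92 and 10.82 on arrays 1 to 3 of the TNF-treated control cells and 10.44, 10.49 and 10.19 on those of the knockdown cells. The unstimulated control arrays stood at 11.01, 10.98 and 10.78. Each knockdown array was below every control array, with or without TNF. The difference was -0.51 ± 0.09 (SE, n = 3 arrays a group, adjusted p = 0.0795 by limma without the block and 0.00389 with it). The blocked call was kept in 10 of the 12 fits that left out 1 array or all arrays of 1 number, and was lost without all arrays numbered 1, where 0 of all genes tested passed, or all numbered 3, where 0.508% did. The TNF difference was -0.04, with a 95% interval from -0.25 to 0.16.

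Sdc3, a syndecan described mainly in the nervous system, read 10.66, 10.81 and 10.69 in the TNF-treated control cells and 10.47, 10.31 and 10.43 in the knockdown cells, after 10.79, 10.85 and 10.81 without TNF. Here too all knockdown arrays were below all control arrays. The difference was -0.32 ± 0.06 (SE, n = 3, adjusted p = 0.0942 by limma and 0.0453 with the block). The block did not narrow the estimate for Sdc3. Its SE was 0.0597 without the block and 0.0655 with it, and its unadjusted p by limma 0.000545 and 0.0014. The adjusted p depends on all genes, of which 27 passed without the block and 652 with it. In each of the 12 fits with fewer arrays the blocked adjusted p was above the threshold, between 0.0517 and 0.301. Those fits called from 0 to 6.01% of all genes in this comparison. What any single array adds to the Sdc3 call was not tested.

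Sdc4 signals together with integrins in focal adhesions. It read 12.21, 12.29 and 11.85 in unstimulated cells and 12.77, 12.57 and 12.32 after TNF, higher within each number by 0.56, 0.28 and 0.46. The TNF-treated arrays were all above the unstimulated ones, the closest being 12.32 against 12.29. The difference was 0.43 ± 0.16 (SE, n = 3, 95% interval 0.07 to 0.80, 1.35-fold), with an unadjusted p of 0.0249 and an adjusted p of 1.00 by limma, and 0.247 with the block. Leaving out array 2 of the knockdown cells, or all arrays numbered 2, brought the blocked adjusted p to 0.035 and 0.0492. Knockdown arrays read 12.89, 12.46 and 12.53, overlapping those of the TNF-treated control cells (difference 0.08, 95% interval -0.29 to 0.44). The remaining syndecan, Sdc2, differed by -0.09 with TNF and by 0.04 in the knockdown (95% interval -0.14 to 0.22), so the lower levels of Sdc1 and Sdc3 in the knockdown cells were not seen in Sdc2 and Sdc4, although no test compared the syndecans with each other.

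**Figure D2:**
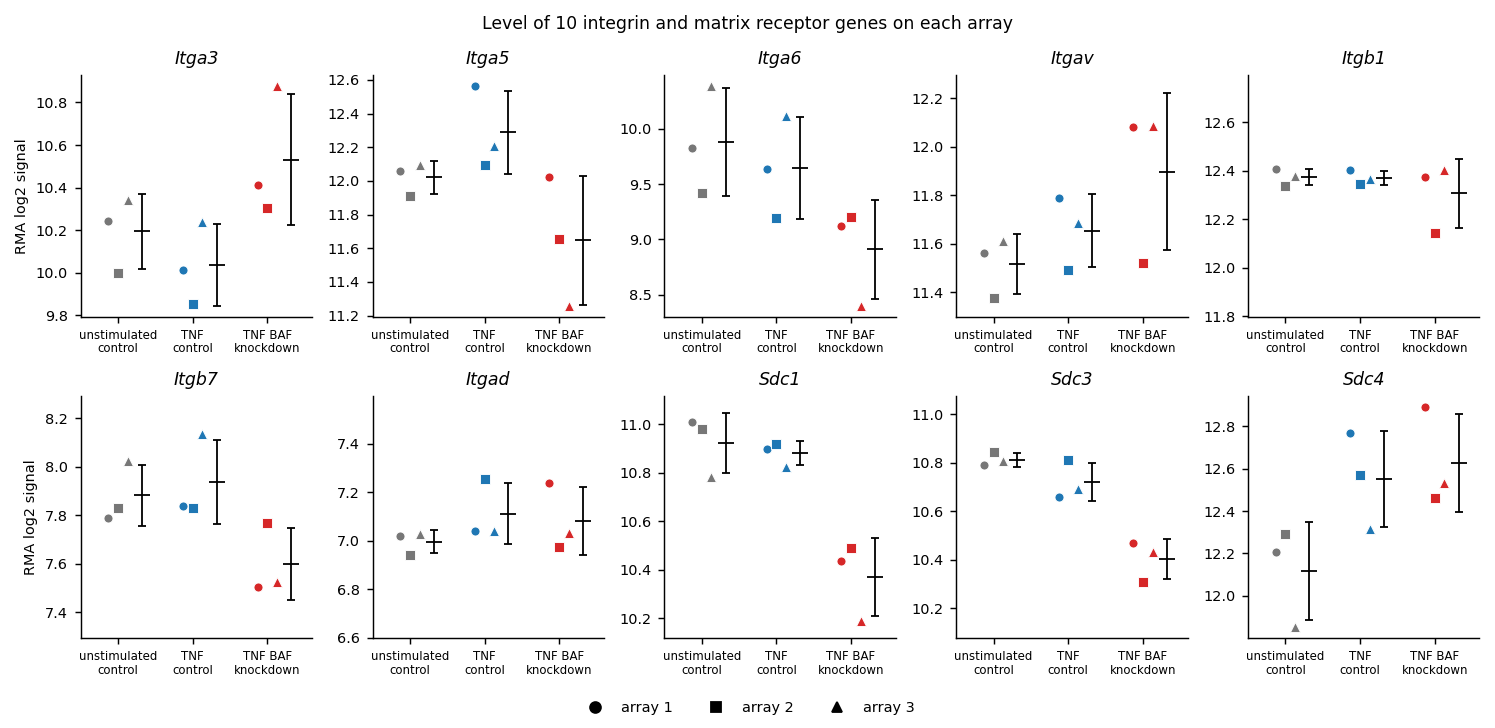
RMA log2 signal of 10 genes on each of the 9 arrays, with a separate vertical scale for each gene, that does not start at 0. Symbols give the array number, and the lines beside them the mean and SD of 3 arrays. For Sdc1, Sdc3, Itga5 and Itgb7 the knockdown arrays lie below all TNF-treated control arrays, for Itga3 above them, and for Itgb1 the 9 values lie between 12.14 and 12.41.

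Among the alpha chains that bind the RGD sequence, Itga5 pairs with Itgb1 to form the main fibronectin receptor. It read 12.06, 11.91 and 12.09 in unstimulated cells, 12.57, 12.09 and 12.21 after TNF, and 12.03, 11.66 and 11.26 in the knockdown cells. The knockdown arrays lay below all TNF-treated control arrays, while the highest of them was within the range of the unstimulated ones. The knockdown difference was -0.64 ± 0.19 (SE, n = 3, adjusted p = 0.30 by limma and 0.0497 with the block), and the blocked call was kept in 2 of the 12 fits with fewer arrays. Itgav, the chain of vitronectin receptors, read 11.56, 11.38 and 11.61 without TNF, 11.79, 11.49 and 11.69 with it and 12.08, 11.52 and 12.09 in the knockdown cells, a difference of 0.24 in the opposite direction to Itga5 that overlapped between the groups and had an adjusted p of 0.793 by limma (0.221 with the block, 0.0154 without array 2 of the knockdown cells). Itga2b, the platelet chain, differed by 0.05, and Itga8 by 0.17 from a level in the bottom quartile.

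Of the 3 laminin-binding chains, Itga3 passed with the block and Itga6 and Itga7 did not pass in either fit. Itga3 read 10.25, 9.998 and 10.34 in unstimulated cells, 10.01, 9.85 and 10.24 after TNF, and 10.41, 10.31 and 10.88 in the knockdown cells. Every knockdown array was above every TNF-treated control array, and within each number the knockdown value was the highest of the 3. The difference was 0.50 ± 0.16 (SE, n = 3, adjusted p = 0.388 by limma and 0.0118 with the block), and the blocked call was kept in 7 of the 12 fits with fewer arrays. It was lost without array 1 or array 3 of the TNF-treated control cells and without all arrays of any number. Itga6, which pairs with Itgb1 or Itgb4, read 9.63, 9.19 and 10.11 in TNF-treated control cells and 9.12, 9.20 and 8.40 in the knockdown cells. The mean difference of -0.74 was the largest of the 35 in size, but the differences within numbers were -0.51, 0.01 and -1.72, and the adjusted p was 0.580 by limma and 0.355 with the block. Its unstimulated arrays read 9.83, 9.42 and 10.39. Itga7, a chain of muscle, differed by 0.08 with TNF and -0.05 in the knockdown, neither of which passed.

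None of the collagen-binding chains passed in either comparison. Itga1, Itga2, Itga10 and Itga11 differed by -0.06 to 0.09 with TNF and by -0.31 to 0.20 in the knockdown cells. Itga11, the collagen chain of fibroblasts, had a difference of -0.05 in the knockdown with a wide 95% interval from -0.71 to 0.61. The kinase receptors for collagen were measured more narrowly: Ddr1 differed by -0.08 with TNF and by 0.05 in the knockdown (95% interval -0.15 to 0.25), and Ddr2, the form of mesenchymal cells, by -0.08 and 0.09 (-0.06 to 0.23). Dag1, whose product links laminin to dystrophin or utrophin, differed by -0.09 and 0.10 (-0.09 to 0.28).

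Itgb1, the partner of most matrix-binding alpha chains, gave nearly the same signal on 8 of the 9 arrays. It read 12.41, 12.34 and 12.38 in unstimulated cells, 12.40, 12.35 and 12.37 after TNF, and 12.38, 12.14 and 12.40 in the knockdown cells, where array 2 stood below the others. The TNF difference had a 95% interval from -0.16 to 0.15 and the knockdown difference one from -0.22 to 0.09, and neither passed (adjusted p = 1.00 and 0.906, limma). Itgb5 forms a vitronectin receptor with Itgav. Its 3 arrays with TNF were below the 3 without, by 0.11 on average (adjusted p = 1.00, limma), and it was 0.14 higher in the knockdown cells, with overlap. Itgb3, Itgb4 and Itgb6 differed by at most 0.06 in either comparison, and Itgb8, which activates latent TGF-β together with Itgav, by -0.04 and -0.27 with wide intervals.

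Of the chains of leukocyte integrins, Itgam, Itgax and Itgae were in the bottom quartile of gene means, Itgal, Itgad, Itgb2, Itgb2l and Itgb7 in the middle and 0 in the top quartile. None passed in either comparison. Itgal, Itgam, Itgax, Itgae and Itgb2 differed by at most 0.08 in either comparison, and the 3 TNF-treated control arrays held one and the same value for Itgae and likewise for Itga4. Itga4 and Itga9, whose receptors bind Vcam1 among others, differed by 0.02 and -0.03 with TNF and by 0.07 and -0.02 in the knockdown, and Itgb2l and Itgbl1 by at most 0.09 in either comparison. Itgad read 7.02, 6.94 and 7.03 without TNF and 7.04, 7.25 and 7.04 with it, where only array 2 stood clear (difference 0.12, adjusted p = 1.00, limma). Itgb7, a partner of Itga4 and Itgae, read 7.79, 7.83 and 8.02 in unstimulated cells, 7.84, 7.83 and 8.13 in TNF-treated control cells and 7.50, 7.77 and 7.52 in the knockdown cells. Its knockdown arrays were all lower, but the difference of -0.34 ± 0.11 (SE, n = 3) did not pass (adjusted p = 0.378 by limma, 0.135 with the block). Without array 2 of the knockdown cells, or without all arrays numbered 2, the blocked adjusted p was 0.0141 and 0.0464.

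The spread between arrays of 1 group differed widely among the genes, and in the control cells it followed the replicate number for some of them. Others, such as Itga5 and Itgav, were highest on array 3 without TNF and on array 1 with it. Itgb8, Itga11 and Itga1 were highest on array 2 and lowest on array 3 both without and with TNF, and Itga6 was highest on array 3 and lowest on array 2 in both. These genes were singled out after their values were seen. For Itgb8 the range within a group was 1.00 without TNF and 1.02 with it, for Itga11 1.06 and 1.00, for Itga1 0.79 and 0.62, and for Itga6 0.97 and 0.92, all on the log2 scale. The ranges of Itgb8, Itga11 and Itga6 exceed every mean difference of the 35 genes in either comparison. In the knockdown cells the range was 0.20 for Itgb8, 0.06 for Itga11 and 0.39 for Itga1, and that of Itga6 was 0.81 with the lowest value on array 3. The replicates were grown on different days per the study's methods.

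**Figure D3:**
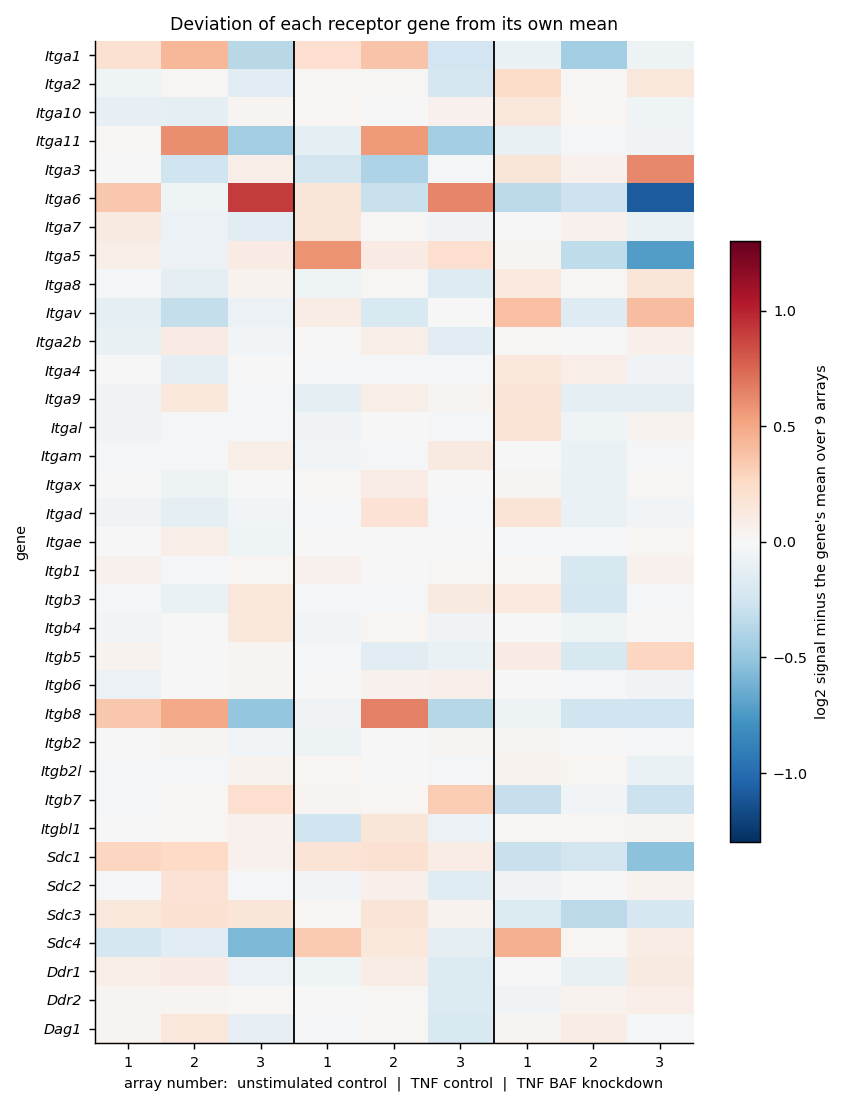
RMA log2 signal of each of the 35 genes on each array minus the mean of that gene over the 9 arrays, in colour, in blocks of 3 columns (control cells without TNF, control cells with TNF, knockdown cells with TNF). Columns 2 and 3 of the control blocks are opposite for Itga1, Itga11 and Itgb8. The knockdown block is blue for Sdc1, Sdc3, Itga6 and Itgb7, among others, and red for Itga3. Its array 2 is pale for Itgb7 and Itga3.

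Genes that act with these receptors were counted from lists chosen for their roles, with earlier results of these data known. Of the adaptors and kinases of focal adhesions, 44 of the 48 listed were measured and 0 passed limma in either comparison. With the block, 2 were lower in the knockdown cells and passed (3.31% of all genes did in either direction): Tns1, a tensin that ties integrins to actin (-0.69, adjusted p = 0.0108), and Enah, which lengthens actin filaments (-0.28, adjusted p = 0.0381). The median over the 44 was 0.01 in the knockdown comparison and -0.01 with TNF, where the largest difference was 0.35, in Fhl2. Of the ligands that integrins bind, 43 of 45 were measured. In the knockdown comparison 2 were lower and passed without the block, where 0.137% of all genes passed in either direction. They were the fibroblast matrix protein Postn (-0.75, adjusted p = 0.0387 by limma) and Ltbp1, which stores latent TGF-β in the matrix (-0.33, adjusted p = 0.0429). With the block 12 were lower, against 2.33% of all genes. Among them were the basement membrane linker Nid1 (-1.33), the tenascin Tnn (-1.197) and the collagen chain Col3a1 (-0.93). Only 1 was higher, against 0.98% of all genes, the laminin chain Lamb1 (0.48), which is named here after its values were seen. The ligand median was -0.05 in that comparison, beside 0.01 over all genes. Without the block the count of 2 became 0 or 1 when any 1 array other than array 2 of the knockdown cells was left out, and it was 0 with the 6 arrays compared alone. With TNF 0 ligands passed, the largest difference being 0.76 in Vcam1, the ligand of Itga4 on cell surfaces (adjusted p = 0.162 by limma and 0.104 with the block).

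Of 29 other surface receptors and proteoglycans listed, 26 were measured and 0 passed limma, and with the block 2 were lower in the knockdown cells and passed (2.33% of all genes were lower and 0.98% higher): the glypican Gpc6 (-0.78, adjusted p = 0.0113) and Sspn of the dystrophin complex (-0.52, adjusted p = 0.0152). Their median was -0.01 in the knockdown comparison and -0.02 with TNF, and Cd44, the hyaluronan receptor, had the largest TNF difference, 0.22. Of the enzymes that build the sugar chains of dystroglycan, 7 of 11 were measured and 0 passed with or without the block, with differences from -0.15 to 0.10 in the knockdown comparison. Without array 2 of the knockdown cells the blocked fit called 6.01% of all genes in place of 3.31%, and 9 of the 44 focal adhesion genes (6 higher), 15 of the 43 ligands (3 higher) and 7 of the 26 other receptors (4 higher). Without all arrays numbered 1 it called 0 ligands and 0 of all genes.

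**Figure D4:**
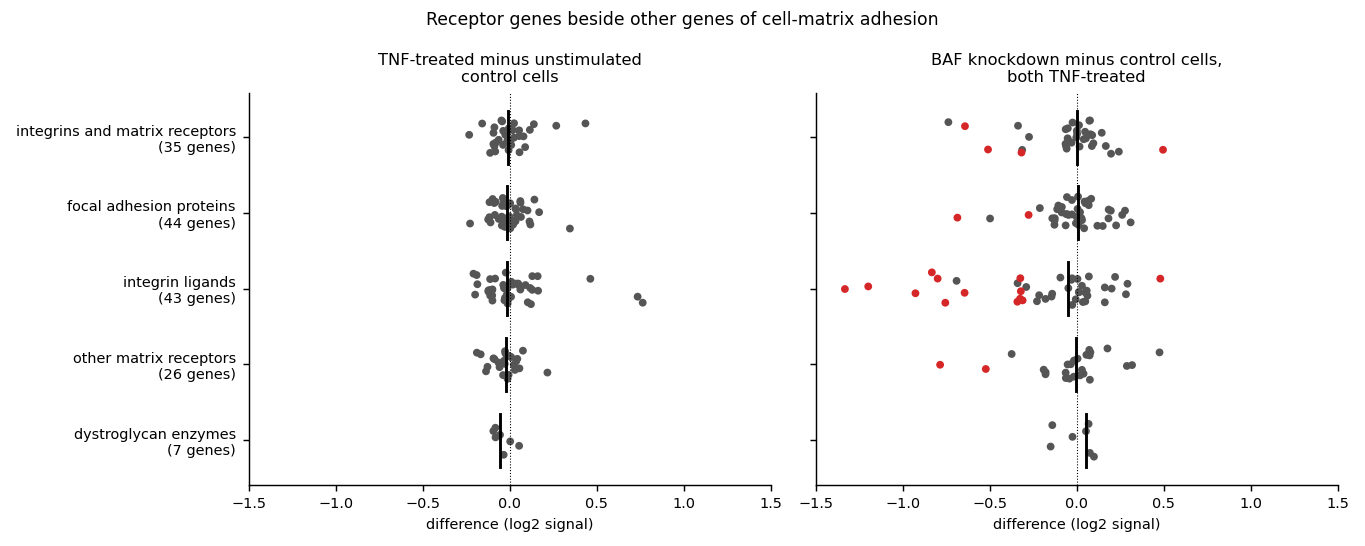
Difference in log2 signal of the 35 receptor genes and of the measured genes of 4 further lists, for the effect of TNF in control cells on the left and for knockdown less control cells after TNF on the right. Each point is a gene, the bar the median of the list, and red points passed an adjusted p under 0.05 with the replicate block. The medians lie within 0.06 of 0, and 12 of the 13 red ligands lie on the lower side.

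The printed promoter stretches held 10 CpG in Sdc1, 11 in Itga5, 32 in Sdc3, 22 in Itga3 and 19 in Sdc4. In the whole window of 300 bases, which adds 50 bases after the start, Sdc3, Itga3 and Sdc4 were CpG-rich by limits taken from the study's methods (over 50% G and C and an observed to expected CpG ratio over 0.6). The study set these limits on a region centred on the start, which differs from the window used here, so a gene may be classed otherwise there. Sdc1 and Itga5 were not, with ratios of 0.486 and 0.504. The 3 genes that were lower in the knockdown cells and passed with the block therefore held both kinds of promoter. RefSeq windows were matched for 26 of the 35 genes, by symbol, and the 9 without one were Itga6, Itga7, Itgad, Itgae, Itgal, Itgb2, Itgb3, Itgb4 and Sdc2. With the first listed window of each gene, 9 of the 26 (34.6%) were CpG-rich, beside 49.6% of 15426 genes of the array, and 10 were with any listed window. Of 12 genes in the top quartile of gene means 7 were CpG-rich, of 8 in the middle 0, and of 6 in the bottom quartile 2 (Itga8 and Itgb6), where the shares over all genes were 78.0% in the top and 12.2% in the bottom quartile.

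Letters of known motifs were searched on both strands of the same windows. GGGNNNNNCC, a loose pattern for NF-kB, was in 15 of 26 windows (57.7%) and in 58.7% of those of all array genes, and GGGCGG, the Sp1 box, in 14 (53.8%) and 49.97%. These patterns can overlap each other. Sdc4 and Sdc1 each held 5 matches to the first, counting overlapping ones, and Itga5 held 0. TGANTCA, the AP-1 site, was in 2 windows (7.69%) beside 6.98%, and the CArG box of serum response factor in 0 beside 1.42%. These counts use the first listed window of each gene. In further listed windows, which are not counted, Itgb6 held a CArG box and Itga3 and Ddr1 an AP-1 match. The shares of all 4 motifs among the receptor genes were thus close to those of the array as a whole, and a match describes letters, not a bound site.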

How the data were processed

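Gene expression was measured on 9 arrays of mouse 3T3 cells. The deposited values are log2 signals that the authors made with RMA, per the labels (background correction, quantile normalisation and median polish); the software version and genome build are not given in the sources used here. Of 27024 transcript clusters, 21319 carried 1 symbol, 1430 several (not used, among them 3 shared by Itgam and Rpl35) and 4275 none in the GEO platform annotation, and the cluster with the highest mean was kept for each of 19698 genes. Arrays have no read depth, so their number limits the precision.

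Groups were compared with limma 3.58.1 (R 4.3.3), tested on simulated data: 1 mean per group over all 9 arrays, two-sided, Benjamini-Hochberg over all genes, called at an adjusted p under 0.05. Same-numbered arrays deviated together (r 0.21 to 0.724 in 9 pairs, against -0.566 to 0.0111 in 18 others), so the fit with the number as a block is printed where it changes a call. The methods describe replicates from different days. Between TNF-treated control and knockdown arrays the same-numbered r were lower, 0.388, 0.21 and 0.247, than between the control groups, 0.579, 0.724 and 0.652. Deviations were taken from the mean of each group of 3 arrays, so the r values are not independent of each other. Both comparisons share the TNF-treated control arrays. Alternatives were median centring, array weights, no dim genes, the second brightest cluster, 6 arrays, the methods' t-test (Student, per gene, unadjusted, with minimum differences of 0.35 for TNF and 0.3 for the knockdown) and leaving out arrays. Array values are given for genes called with or without the block, the 6 largest differences in each comparison, and Itgb1, Itgav and Itga5; from each list, called genes (at most 6, and those called without the block) or else the 2 largest differences are eligible for naming. Members and lists were chosen with earlier results of these data known.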

Additional observations from a re-analysis of the deposited data

How the results depend on the processing

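Without the replicate block, the number of receptor genes called stayed at 0 in both comparisons under median centring, array weights, no dim genes, 6 arrays and the methods' t-test after adjustment, and when any 1 array was left out. After adjustment the methods' t-test called 1 of all genes with TNF and 0 in the knockdown comparison. The second brightest cluster was no test for the receptor genes, since each had 1. With the block it was 4 in the knockdown comparison and 0 with TNF. In blocked fits without 1 array or all arrays of 1 number, a choice made after seeing the data, it ran from 0 to 6 in the knockdown comparison (6 without array 2 of the knockdown cells, where 6.01% of all genes were called, 2 without all arrays numbered 2, with 3.29%, and 0 without all numbered 1, with 0 of all genes) and from 0 to 1 with TNF (1 without array 2 of the knockdown cells or all arrays numbered 2, with 0.624% and 0.386%). The cause was not tested. The median TNF difference of -0.0118 ran from -0.0406 to 0.0202 over the fits without 1 array, blocked or not, and blocked it was -0.0034 without all arrays numbered 1 and 0.0012 without all numbered 3. Changes of sign were seen in Itgb1, which was near 0, and in Itga6 with TNF, at -0.23 the lowest TNF difference of the 35. Over the fits without 1 array Itgb1 ran from -0.0406 to 0.0259 with TNF and from -0.1117 to 0.0187 in the knockdown comparison, and Itga6 from -0.4668 to 0.0344 with TNF. In blocked fits Itgb1 was 0.0012 with TNF without all arrays numbered 3, and 0.0059 in the knockdown comparison without all numbered 2. The blocked count of integrin ligands in the knockdown comparison was 13 against 2 without the block, and of focal adhesion genes and other receptors 2 each against 0. Over all genes 3.31% passed there with the block and 0.137% without it.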
